A study of Mus musculus with 15 samples.

Results

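The collagen genes were taken as all genes of the deposited count table whose symbol is Col, a number, a, and a number. The rule found 44 genes among the 25239 in the table, and it used no measured value. They were measured by RNA immunoprecipitation and sequencing (RIP-seq), in which RNA bound to a protein is recovered with an antibody, in ST2 cells, a stromal cell line from mouse bone marrow. All cells were fixed with 1% formaldehyde before lysis. Arid5a, an RNA-binding protein known to stabilise transcripts of inflammatory genes, was precipitated after IL-17 at 200 ng/mL for 3 h (4 libraries, Arid5a IL-17) or in medium alone (4 libraries, Arid5a medium). Mouse IgG2b served as the control antibody after the same IL-17 treatment (3 libraries, numbered 2 to 4, IgG IL-17) or in medium (4 libraries, IgG medium). The comparisons ask which transcripts came down with Arid5a and how that changed with the cytokine.

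Collagens are triple-helical proteins of the extracellular matrix, and each Col gene encodes one alpha chain. Fibrillar chains form the fibres of bone, skin and tendon, chains of the FACIT class (fibril-associated collagens with interrupted triple helices) sit on fibre surfaces, and other classes build networks, beaded filaments, anchoring fibrils or membrane-bound forms. Marrow stromal cells and osteoblast precursors are a main source of collagen I in bone. The chains are hydroxylated and folded in the endoplasmic reticulum, trimmed after secretion, and crosslinked by lysyl oxidases.

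Library totals ran from 939139 counts, in IgG medium library 2, to 5713913 counts, in Arid5a IL-17 library 3. The labels do not say whether replicates came from separate cultures, so p-values measure the spread between these libraries. No library of unprecipitated RNA was analysed here, so a change in a transcript's abundance in the cells and a change in its recovery cannot be told apart, nor can fewer cells and less RNA per cell. The stromal marker Vim, an intermediate filament gene, stood at 6078 to 8464 CPM (counts scaled to library size with TMM factors), and Cxcl12, a chemokine of marrow stroma, at 1352 to 2417 CPM. Thy1, Eng and Nt5e, also on the stromal list, stayed at or below 15.7 CPM, and Nt5e had 0 in 2 libraries. Of the 5 osteoblast markers, Runx2 stood at 74.2 to 144 CPM and Sp7 at 4.40 to 18.5 CPM, while Bglap had 0 counts in 12 of 15 libraries. Of the 4 adipocyte markers, Pparg stood at 50.3 to 104 CPM and Fabp4 at 21.0 to 77.5 CPM, and Adipoq and Plin1 each had 0 in 2 libraries. The haematopoietic marker Ptprc did not exceed 3.30 CPM.

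Collagen transcripts made up 1.57% to 2.02% of the counts of a library, with 1.86% ± 0.16 in Arid5a IL-17, 1.73% ± 0.14 in Arid5a medium, 1.90% ± 0.11 in IgG IL-17 and 1.92% ± 0.08 in IgG medium (SD, n = 3 for IgG IL-17 and 4 for the others). Col1a1 alone held 39.6% of all collagen counts, Col1a2 18.6% and Col6a3 11.3%, together 69.5%. Of the 44 genes, 42 passed the filter on low counts, and 16 were well expressed, which here means an average log2 CPM of at least 5 in the fit. These 16 held 99.0% of the collagen counts. By class, 7 of 11 fibrillar genes, 3 of 6 beaded-filament genes, 3 of 6 basement-membrane genes, 2 of 9 FACIT genes and 1 of 3 hexagonal-network genes were well expressed. None of the 1 anchoring-fibril, 4 transmembrane, 2 multiplexin and 2 other genes was.

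Levels of different genes were compared in FPKM, which scales fragments to gene length. The chains of collagen I led, with 1312 ± 156 FPKM for Col1a1 and 676 ± 90.1 FPKM for Col1a2 over all 15 libraries (mean and SD). Each stood above the next gene in 15 of 15 libraries. The collagen VI chains and the collagen V chain Col5a2 formed a second group, with 217 FPKM for Col6a3, 186 for Col6a1, 176 for Col5a2 and 159 for Col6a2. Col6a1 exceeded Col5a2 in only 9 of 15 libraries, so the order of that pair was not settled by these data. Below them came Col4a1 at 90.4 FPKM, Col4a2 at 82.98, Col5a1 at 73.9, Col3a1 at 62.3 and Col12a1 at 50.0. Each of these exceeded the next in at least 13 of 15 libraries. Col8a1 at 25.1 FPKM, Col16a1 at 17.6 and Col4a5 at 10.4 followed, with Col5a3 at 7.74 and Col27a1 at 4.31 the lowest of the 16.

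**Figure D1:**
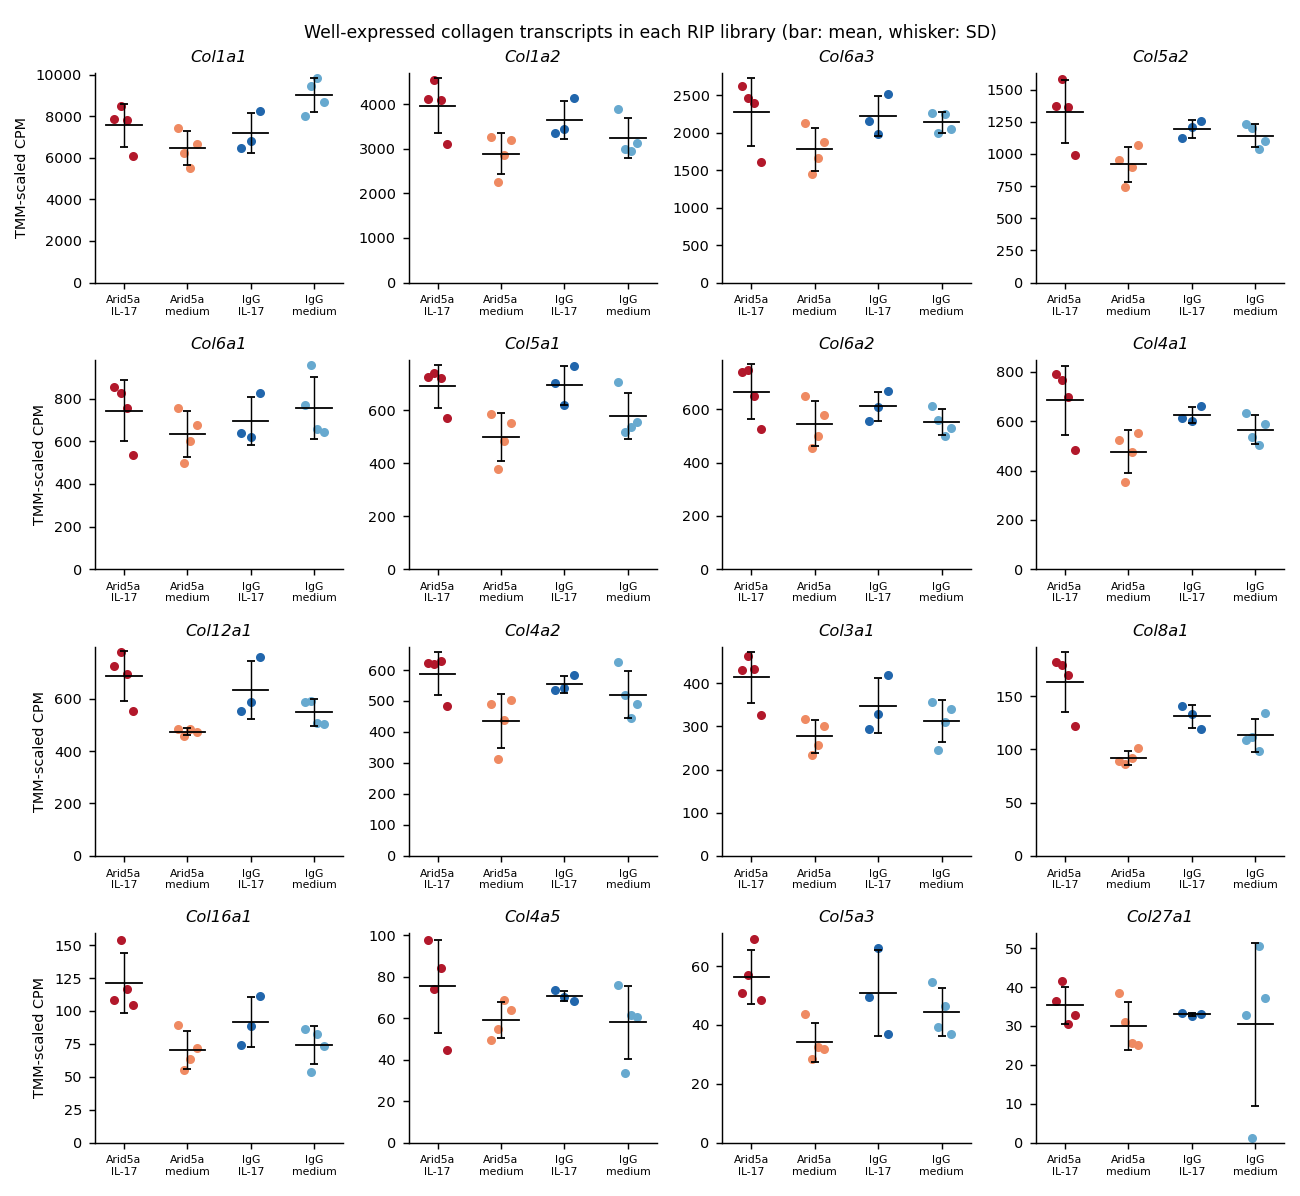
TMM-scaled CPM (vertical axis, from 0) of the 16 well-expressed collagen transcripts in each library of Arid5a IL-17, Arid5a medium, IgG IL-17 and IgG medium; points are libraries, bars group means and whiskers SD. Col8a1 lay between 122 and 182 CPM in the Arid5a IL-17 libraries, above the 86.3 to 102 CPM of the Arid5a medium libraries.

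With IL-17, 9 collagen transcripts rose in the Arid5a RIP relative to medium and 0 fell, among 42 tested (edgeR quasi-likelihood test, Benjamini-Hochberg adjusted p below 0.05 over 17835 genes). They were Col8a1, Col16a1, Col12a1, Col5a2, Col3a1, Col4a1, Col1a2, Col5a3 and Col5a1. All 9 belonged to the 16 well-expressed genes, of which the other 7 did not pass. Over all genes tested, 4.84% rose and 0.813% fell in this comparison, and among the 5394 well-expressed genes 15.4% rose. DESeq2 called 7 collagens higher and 1 lower, against 4.51% and 3.16% of all genes, and limma voom 15 higher and 8 lower, against 18.9% and 23.1%. The collagens these tools called higher were all well expressed, and their shares of well-expressed genes called were not computed. The median log2 fold was 0.46 over the 16 collagens and 0.30 over all well-expressed genes. All 16 folds were above 0, as were 85.0% of the folds of all well-expressed genes.

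These counts depended on how libraries were scaled. Scaling by upper quartile, by library totals, or by TMM factors from well-expressed genes left 1 called collagen each, and in each case it was Col8a1. Over all genes, these scalings called 202, 156 and 114 higher and 119, 145 and 184 lower, in that order. DESeq2's size factors gave 7 collagens higher, among them Col8a1, and 1 lower, Col6a6. Under these scalings the median of all well-expressed genes was 0.09, 0.05, -0.01 and 0.22, in the order given, against 0.30 with TMM factors from all genes. The median over the 16 collagens was 0.25, 0.21, 0.15 and 0.38, against 0.46. Leaving out single libraries moved the count between 1 (without Arid5a IL-17 library 2) and 14 (without Arid5a IL-17 library 4, 12 higher and 2 lower). Over all genes, 296 rose and 12 fell without Arid5a IL-17 library 2, and 1498 rose and 759 fell without Arid5a IL-17 library 4. With all libraries, 863 rose and 145 fell. The collagen count was 2 without Arid5a IL-17 library 1 or Arid5a medium library 2, where 321 and 437 of all genes rose. It was 4 without Arid5a IL-17 library 3 or Arid5a medium library 3, where 447 and 415 of all genes rose. Col8a1 passed in each of these, joined without Arid5a IL-17 library 1 by Col16a1 and without Arid5a medium library 2 by Col12a1.

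In the IgG RIP, IL-17 against medium called 0 collagens, while 0.258% of all genes rose and 0.235% fell. At an unadjusted p below 0.05, 3 collagens passed against 11.1% of all genes, and DESeq2 and limma voom also called 0. The median fold was 0.14 over the 16 collagens and -0.04 over all well-expressed genes.

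Arid5a against IgG in medium called 1 collagen lower, Col1a1, and 0 higher, against 0.572% of all genes lower and 0.0561% higher. Among well-expressed genes 1.85% were lower. The median fold was -0.23 over the 16 collagens and -0.19 over all well-expressed genes. With IL-17, Arid5a against IgG called 0 collagens in edgeR, while 0.0561% of all genes were higher and 0.0112% lower. There, 6 collagens had an unadjusted p below 0.05, against 8.95% of all genes. DESeq2 called 0 and limma voom 2, Col3a1 higher and Col11a1 lower. Over all genes, limma voom called 271 higher and 300 lower. The medians were 0.12 over the 16 collagens and 0.15 over all well-expressed genes.

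The change of Arid5a enrichment with IL-17, that is, the difference between these antibody contrasts, called 0 collagens in edgeR, with 0.869% of all genes higher and 0.107% lower. At an unadjusted p below 0.05, 6 collagens passed against 16.3% of all genes. DESeq2 called 0 collagens, with 242 of all genes higher and 163 lower. In limma voom 6 collagens were higher and 1 lower, with 938 of all genes higher and 820 lower. Leaving out Arid5a IL-17 library 4 called 3 higher (Col1a1, Col5a2 and Col8a1), and leaving out IgG medium library 1 called 1 lower (Col13a1). Over all genes, the former called 506 higher and 209 lower, and the latter 376 and 67. The medians were 0.35 over the 16 collagens and 0.34 over all well-expressed genes. Since the contrast of IL-17 against medium was called for 9 collagens in the Arid5a RIP and for 0 in the IgG RIP without a called difference between the RIPs, these transcripts were not shown to respond differently in the 2 precipitates. The comparisons share libraries, so their values stand side by side below and do not support one another.

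**Figure D2:**
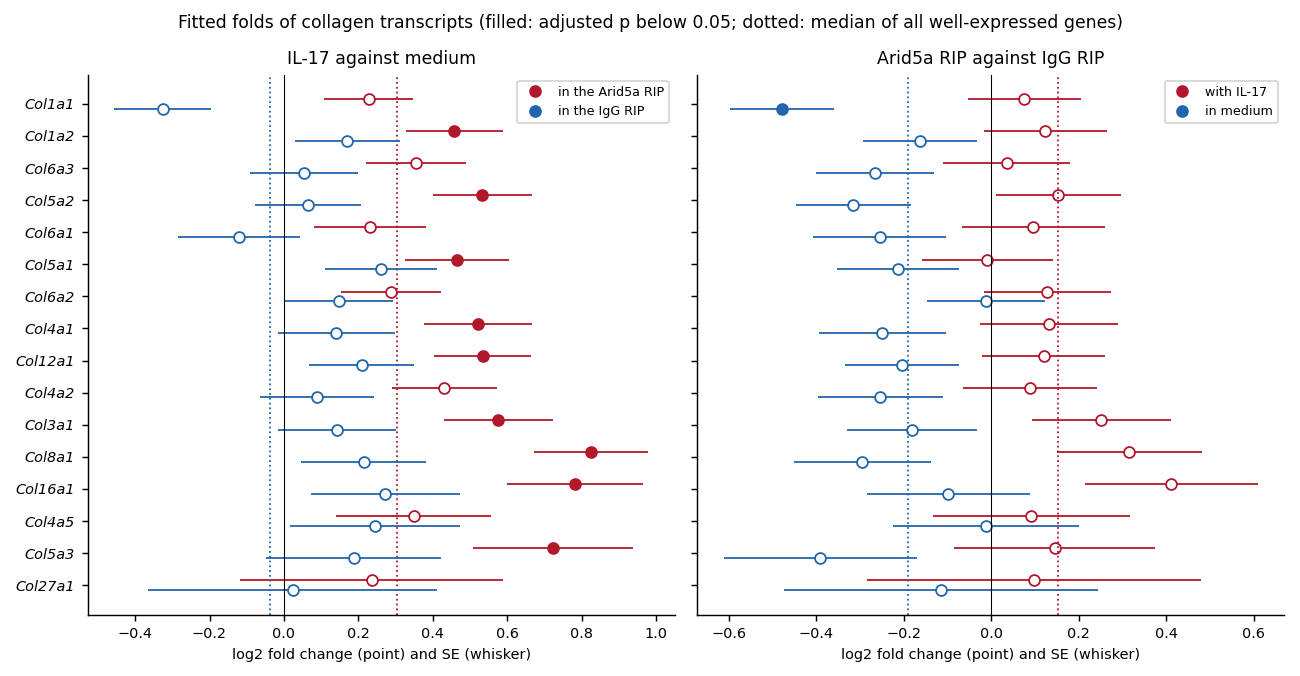
Fitted log2 folds (horizontal axis, points) with SE (whiskers) of the 16 well-expressed collagens, IL-17 over medium on the left in the Arid5a RIP and the IgG RIP, and Arid5a over IgG on the right with IL-17 and in medium. Filled points have an adjusted p below 0.05: 9 collagens for IL-17 in the Arid5a RIP, and Col1a1 for Arid5a in medium at -0.48; dotted lines mark the median of all well-expressed genes.

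Below, folds are log2 values of the fit with their SE, and single libraries are listed in the order of their numbers. Whether groups overlapped was judged on TMM-scaled CPM, so it depends on the scaling. For IL-17 against medium in the Arid5a RIP, 5 of the 16 collagens did not overlap. The share of all genes without overlap was not computed. Collagen VIII forms hexagonal networks, known from the cornea and from vessel walls, and Col8a1 encodes its alpha-1 chain. Col8a1 (chr16:57624256-57754737 in GRCm38.p6, the assembly of mm10) had 182, 179.6, 170.0 and 122 CPM with IL-17 in the Arid5a RIP, against 89.3, 86.3, 91.5 and 102 in medium. The groups did not overlap, although library 4 stood below the other IL-17 libraries. The fold was 0.82 ± 0.15 (SE; adjusted p = 0.000892), the largest among the 16. In the IgG RIP Col8a1 had 141, 133 and 119 CPM with IL-17, against 108, 111, 98.2 and 135 in medium, and these groups overlapped, at 0.21 ± 0.17 (SE; adjusted p = 0.690). Arid5a over IgG gave 0.32 ± 0.17 with IL-17 and -0.29 ± 0.16 in medium, with adjusted p-values of 0.579 and 0.432. The difference between the RIPs in their response was 0.61 ± 0.23 (SE; adjusted p = 0.166). Of 27 alternative settings, 25 called Col8a1 higher with IL-17 in the Arid5a RIP, at folds between 0.51 and 0.93. The 2 that did not used limma on FPKM with a pseudocount of 1 or 0.1, with adjusted p-values of 0.0779 and 0.0941. The alpha-2 chain of collagen VIII, Col8a2, was low, at 1.94 FPKM.

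FACIT chains coat fibrils and link them to other matrix. Col16a1 (chr4:130047817-130099277), a minor chain of fibrillin-rich and collagen II matrices, had 108, 154, 117 and 104 CPM with IL-17 in the Arid5a RIP, against 89.6, 55.3, 63.8 and 72.0 in medium. Every IL-17 library exceeded every medium library, and the fold was 0.78 ± 0.18 (SE; adjusted p = 0.00774). Its gene model overlaps the predicted genes Gm12963 and Gm46871. The IgG RIP held 74.1, 88.6 and 111 CPM with IL-17, against 86.1, 53.9, 82.3 and 73.7 in medium, at 0.27 ± 0.20 (SE; adjusted p = 0.663), with overlapping groups. Arid5a over IgG gave 0.41 ± 0.20 with IL-17 and -0.10 ± 0.19 in medium, and the interaction was 0.51 ± 0.27, with adjusted p-values of 0.539, 0.863 and 0.343.

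Col12a1 (chr9:79598987-79721141) encodes the FACIT chain that binds collagen I fibrils in tendon and ligament. It had 723, 778, 693 and 552 CPM with IL-17 in the Arid5a RIP, against 486, 457, 483 and 471 in medium, again without overlap, and the medium libraries were tightly grouped. The fold was 0.53 ± 0.13 (SE; adjusted p = 0.0117). The IgG RIP held 553, 586 and 759 CPM with IL-17, against 589, 592, 505 and 503 in medium, at 0.21 ± 0.14 (SE; adjusted p = 0.622). In medium every Arid5a library lay below every IgG library in TMM-scaled CPM, and the fold of -0.20 ± 0.13 did not pass (adjusted p = 0.533). In the deposited FPKM these groups overlapped, at 43.4 to 47.8 in Arid5a medium and 39.9 to 50.5 in IgG medium. With IL-17 Arid5a over IgG was 0.12 ± 0.14, and the interaction was 0.32 ± 0.19 (adjusted p = 0.843 and 0.402).

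To show the sequence from which the called transcripts start, the 250 bases upstream of the RefSeq start (GRCm38.p6) are given for Col8a1 and Col16a1, the genes with the largest folds, and for Col1a2, the collagen I chain that rose. They were chosen after the values were seen. Capitals mark matches to the GC box (GGGCGG, or CCGCCC on the other strand) and to the CCAAT box (CCAAT, or ATTGG on the other strand), and each sequence reads 5′ to 3′ on the gene's strand. Col8a1 spans chr16:57754738-57754987 on the minus strand and has 4 GC boxes, Col16a1 spans chr4:130047590-130047839 on the plus strand with 1 GC box and 1 CCAAT box, and Col1a2 spans chr6:4505368-4505617 on the plus strand with 2 GC boxes and 1 CCAAT box. The start that RefSeq's upstream sequence uses for Col16a1 lies within the gene model given above, so the last 23 bases of its window are inside that model.
Col8a1: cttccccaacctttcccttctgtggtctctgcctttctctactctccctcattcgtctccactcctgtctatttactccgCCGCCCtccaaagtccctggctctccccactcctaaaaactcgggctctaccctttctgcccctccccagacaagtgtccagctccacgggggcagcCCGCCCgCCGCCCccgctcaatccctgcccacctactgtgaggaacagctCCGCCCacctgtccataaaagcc
Col16a1: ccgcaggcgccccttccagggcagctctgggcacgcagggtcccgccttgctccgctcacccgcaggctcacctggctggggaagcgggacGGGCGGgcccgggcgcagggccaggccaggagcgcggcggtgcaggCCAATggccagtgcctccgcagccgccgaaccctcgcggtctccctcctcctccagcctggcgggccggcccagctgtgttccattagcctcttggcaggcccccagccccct
Col1a2: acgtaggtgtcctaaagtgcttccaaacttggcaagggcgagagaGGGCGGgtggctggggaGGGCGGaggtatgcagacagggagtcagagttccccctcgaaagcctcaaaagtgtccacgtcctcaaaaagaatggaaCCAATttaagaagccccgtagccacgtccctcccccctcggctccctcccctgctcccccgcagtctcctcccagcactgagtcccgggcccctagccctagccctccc

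Such windows were found for 35 of the 44 collagen genes, with 38 start sites in all, and for 7 of the 10 collagens called in any comparison. Each motif was searched on both strands, and matches of different motifs were counted separately whether or not they overlapped. A GC box was present in 22 of the 38 collagen windows (57.9%), against 32.7% of 32851 windows in the genome. This difference was not tested, and the base composition of the windows was not taken into account. The windows printed above held 60.8% G or C for Col8a1, 75.6% for Col16a1 and 62% for Col1a2. The other motifs were about as frequent in collagen windows as in all windows or too rare to compare. CCAAT was present in 34.2% of collagen windows against 33.9% of all, and TATAAA in 13.2% against 12.4%. Motifs of IL-17-responsive factors were rare: the AP-1 motif TGACTCA stood in 1 collagen window (Col6a1, 2.63% against 4.46% of all), the C/EBP motif TTGCNNAA in 3 (7.89% against 9.56%), and the NF-kB motif (GGG, any 2 bases, then TTTCC) in 1 (Col17a1, 2.63% against 1.41%). None of the 3 windows printed above held one of these 3 motifs in its letters.

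Collagen I is the main fibre of bone, a trimer of Col1a1 and Col1a2 chains. Col1a2 (chr6:4505618-4541543) had 4125, 4542, 4094 and 3107 CPM with IL-17 in the Arid5a RIP, against 3256, 2252, 2849 and 3201 in medium. Arid5a IL-17 library 4 fell within the range of the medium libraries, so the groups overlapped. The fold was 0.46 ± 0.13 (SE; adjusted p = 0.0309). With IgG, Col1a2 had 3343, 3444 and 4137 CPM with IL-17, against 3892, 2984, 2942 and 3121 in medium, at 0.17 ± 0.14 (SE; adjusted p = 0.710). Arid5a over IgG gave 0.12 ± 0.14 with IL-17 and -0.16 ± 0.13 in medium, with an interaction of 0.29 ± 0.19 (adjusted p = 0.834, 0.634 and 0.461).

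Col1a1 (chr11:94936224-94953042), the partner chain, was the single collagen called lower with Arid5a than with IgG in medium. It had 7447, 6253, 5495 and 6655 CPM in Arid5a medium libraries, against 8026, 9465, 9846 and 8672 CPM in IgG medium libraries, and the groups did not overlap. The fold was -0.48 ± 0.12 (SE; adjusted p = 0.0472). This call held in 5 of 27 alternative settings, with folds from -0.55 to -0.29 and adjusted p-values from 0.00942 to 0.341. It held under DESeq2, at the lowest of these values, and was lost under the other scalings. It also held without Arid5a medium library 1, IgG medium library 1, Arid5a IL-17 library 4 or IgG IL-17 library 4, and was lost without any other single library. With IL-17 Col1a1 had 7872, 8486, 7809.7 and 6093 CPM in Arid5a libraries, against 6457, 6811 and 8270.4 CPM in IgG libraries, at 0.08 ± 0.13 (SE; adjusted p = 0.894).

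Across IL-17 and medium, Col1a1 did not pass in either RIP in edgeR. In the Arid5a RIP limma voom called it higher (0.31, adjusted p = 0.0144), as it did 18.9% of all genes. The share of well-expressed genes called higher there was not computed. The edgeR fold was 0.23 ± 0.12 (SE; adjusted p = 0.252) in the Arid5a RIP, where scaling by library totals gave -0.02 and TMM factors from well-expressed genes -0.08. It was -0.33 ± 0.13 (SE; adjusted p = 0.309) in the IgG RIP, and the interaction was 0.55 ± 0.18 (SE; adjusted p = 0.105). That interaction passed without Arid5a IL-17 library 4 (0.64, adjusted p = 0.0193) and in limma voom (0.69, adjusted p = 0.0196).

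The proportion of the collagen I chains within a library does not depend on scaling between libraries. The ratio of Col1a1 to Col1a2 in FPKM was 1.67, 1.63, 1.67 and 1.72 in Arid5a IL-17, 2.005, 2.43, 1.69 and 1.82 in Arid5a medium, 1.69, 1.73 and 1.75 in IgG IL-17 and 1.81, 2.78, 2.93 and 2.43 in IgG medium. The 7 IL-17 libraries lay between 1.63 and 1.75, and the 8 medium libraries between 1.69 and 2.93, so the ranges overlapped at the lower end. This ratio was chosen after its values were seen and was given no test. The share of Col1a1 in all collagen counts was 37.5% ± 0.74 in Arid5a IL-17, 40.7% ± 3.32 in Arid5a medium, 37.7% ± 0.88 in IgG IL-17 and 45.4% ± 4.20 in IgG medium (SD). The highest shares stood in IgG medium libraries 2, 3 and 4 and in Arid5a medium library 2.

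**Figure D3:**
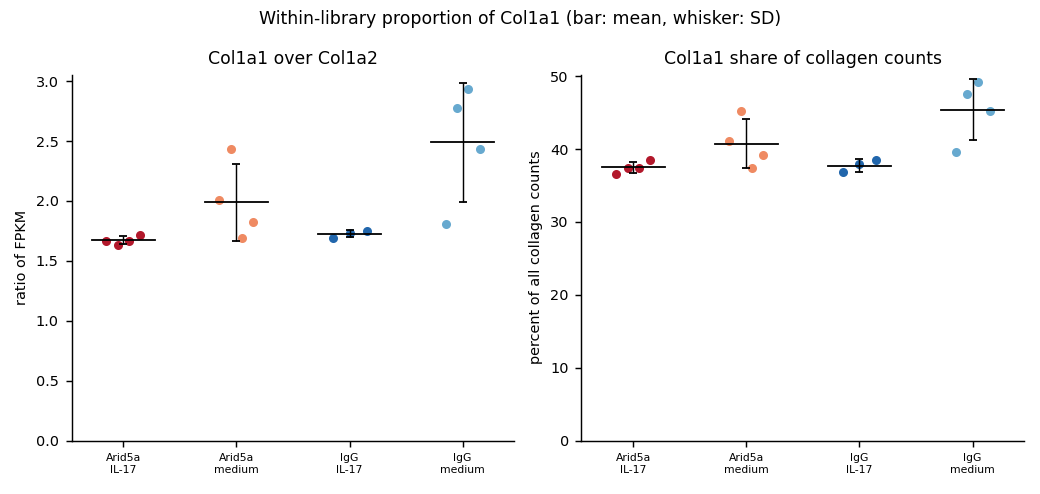
Ratio of Col1a1 to Col1a2 in FPKM (left) and share of Col1a1 in all collagen counts in percent (right), by library, in Arid5a IL-17, Arid5a medium, IgG IL-17 and IgG medium; points are libraries, bars means and whiskers SD. The 7 IL-17 libraries lay between 1.63 and 1.75, and the medium libraries reached 2.93.

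Collagen III, which forms mixed fibres with collagen I in soft tissue, is a homotrimer of Col3a1. Col3a1 (chr1:45311538-45349706) had 431, 463, 432 and 327 CPM with IL-17 in the Arid5a RIP, against 317, 234, 257 and 301 in medium, without overlap, and the fold was 0.58 ± 0.15 (SE; adjusted p = 0.0152). The IgG RIP held 295, 329 and 419.7 CPM with IL-17, against 357, 246, 309.5 and 339 in medium, at 0.14 ± 0.16 (SE; adjusted p = 0.808). The groups of the IgG RIP overlapped. Arid5a over IgG was 0.25 ± 0.16 with IL-17 and -0.18 ± 0.15 in medium, and the interaction was 0.43 ± 0.22 (adjusted p = 0.667, 0.641 and 0.315).

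Collagen V chains seed collagen I fibrils and limit their width, and all 3 were called higher with IL-17 in the Arid5a RIP. Col5a2 (chr1:45374331-45503282) had 1371, 1585, 1365 and 994 CPM with IL-17 in the Arid5a RIP, against 952, 747, 900.3 and 1072 in medium, with library 4 inside the range of the medium libraries, at 0.53 ± 0.13 (SE; adjusted p = 0.0126). In the IgG RIP it had 1121, 1207 and 1258 CPM with IL-17, against 1233, 1199, 1035 and 1104 in medium, at 0.06 ± 0.14 (SE; adjusted p = 0.923). Col5a1 (chr2:27886381-28039510) had 727, 742, 723 and 571 CPM with IL-17 in the Arid5a RIP, against 587, 380.0, 482 and 552 in medium, at 0.46 ± 0.14 (SE; adjusted p = 0.0404). Library 4 again lay below the highest medium library. The IgG RIP held 701, 619 and 766 CPM with IL-17, against 707, 518, 536 and 557 in medium, at 0.26 ± 0.15 (SE; adjusted p = 0.542). The Col5a1 model overlaps the predicted gene Gm13372. Col5a3 (chr9:20770050-20815117), the least abundant of the 3, had 50.9, 57.0, 69.1 and 48.4 CPM with IL-17 in the Arid5a RIP, against 43.7, 28.5, 32.5 and 31.9 in medium without overlap, at 0.72 ± 0.22 (SE; adjusted p = 0.0388). In FPKM these groups almost met, at 7.69 in Arid5a IL-17 library 1 and 7.67 in Arid5a medium library 1. In the IgG RIP Col5a3 had 49.5, 66.2 and 36.8 CPM with IL-17, against 54.7, 39.3, 46.6 and 36.8 in medium, at 0.19 ± 0.23 (SE; adjusted p = 0.832).

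Arid5a over IgG did not pass for any collagen V chain. With IL-17 the folds were 0.15 ± 0.14 for Col5a2, -0.01 ± 0.15 for Col5a1 and 0.15 ± 0.23 for Col5a3, with adjusted p-values of 0.793, 0.994 and 0.887. In medium they were -0.32 ± 0.13, -0.21 ± 0.14 and -0.39 ± 0.22, with 0.296, 0.543 and 0.461. The interactions were 0.47 ± 0.19, 0.20 ± 0.20 and 0.54 ± 0.32, with 0.217, 0.643 and 0.402. Within libraries the ratio of Col5a1 to Col5a2 in FPKM stayed between 0.34 and 0.49.

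Col27a1 (chr4:63214009-63334991), a fibrillar chain best known from cartilage, had the largest SE of the 16 in each of the 5 comparisons. It had 36.5, 41.5, 30.4 and 32.8 CPM with IL-17 in the Arid5a RIP, against 38.4, 31.0, 25.6 and 25.1 in medium. The IgG RIP held 33.4, 32.6 and 33.0 CPM with IL-17, against 32.9, 1.12, 50.6 and 37.1 in medium. The value of 1.12 CPM rested on 1 count in IgG medium library 2, the shallowest library, and the groups overlapped in each comparison. The folds for IL-17 were 0.24 ± 0.35 in the Arid5a RIP and 0.02 ± 0.39 in the IgG RIP (adjusted p = 0.712 and 0.991). Arid5a over IgG gave 0.10 ± 0.38 with IL-17 and -0.12 ± 0.36 in medium, and the interaction was 0.21 ± 0.52 (adjusted p = 0.960, 0.928 and 0.871). Its model overlaps Gm52743 and the microRNA gene Mir455.

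Collagen IV makes up the sheet of basement membranes, and its common form joins Col4a1 and Col4a2 chains. The genes lie head to head on chromosome 8, Col4a1 at chr8:11198423-11312889 and Col4a2 at chr8:11312805-11449287, and their gene models overlap. In RefSeq's upstream sequences, the first starts listed for the 2 genes are 21 bases apart on opposite strands. They lie at 11312826 for Col4a1 and 11312805 for Col4a2. That Col4a1 start is inside its gene model, which extends to 11312889. Since the strand setting of the counting is not given in the sources used here, reads of the overlap cannot be assigned. Col4a1 had 791, 766, 699.6 and 482 CPM with IL-17 in the Arid5a RIP, against 526, 353, 477 and 551 in medium, at 0.52 ± 0.15 (SE; adjusted p = 0.0268). Col4a2 had 622, 618, 629.7 and 483 CPM with IL-17 in the Arid5a RIP, against 491, 313, 438 and 503 in medium, at 0.43 ± 0.14 (SE; adjusted p = 0.0638), which did not pass. Both had an IL-17 library 4 inside the range of the medium libraries, so the groups overlapped. Their ratio in FPKM stayed between 0.97 and 1.24.

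In the IgG RIP Col4a1 had 612, 602 and 662 CPM with IL-17, against 634, 537, 505 and 590.2 in medium, at 0.14 ± 0.16 (SE; adjusted p = 0.808). Col4a2 had 534, 542 and 584 CPM with IL-17, against 625, 518, 446 and 492 in medium, at 0.09 ± 0.15 (SE; adjusted p = 0.895). Neither passed. Arid5a over IgG gave 0.13 ± 0.16 and 0.09 ± 0.15 with IL-17 for Col4a1 and Col4a2, with adjusted p-values of 0.845 and 0.895. In medium it gave -0.25 ± 0.15 and -0.25 ± 0.14, with 0.483 and 0.458. The interactions were 0.38 ± 0.21 and 0.34 ± 0.21, with 0.374 and 0.415.

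Col4a5 (chrX:141475370-141689236), a chain of kidney basement membranes that also occurs in smooth muscle, had 97.7, 74.3, 84.4 and 44.7 CPM with IL-17 in the Arid5a RIP, against 49.5, 54.9, 68.7 and 63.7 in medium. Arid5a IL-17 library 4 was below every medium library. The fold was 0.35 ± 0.21 (SE; adjusted p = 0.320). The IgG RIP held 73.4, 70.4 and 68.4 CPM with IL-17, against 76.1, 33.7, 61.8 and 60.5 in medium, at 0.24 ± 0.23 (SE; adjusted p = 0.763). Arid5a over IgG gave 0.09 ± 0.23 with IL-17 and -0.01 ± 0.21 in medium, and the interaction was 0.10 ± 0.31, with adjusted p-values of 0.930, 0.990 and 0.893.

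Collagen VI forms beaded filaments around cells from 1 chain each of Col6a1, Col6a2 and Col6a3, and 0 of the 3 were called in any comparison by edgeR with all libraries or by DESeq2. For IL-17 in the Arid5a RIP, limma voom called all 3 higher, as it did 18.9% of all genes. The 3 chains are well expressed, and the share of well-expressed genes that limma voom called higher was not computed. Without Arid5a IL-17 library 4, edgeR called Col6a3 (0.49, adjusted p = 0.00727) and Col6a2 (0.38, adjusted p = 0.0451) higher, as it did 1498 of all genes. Col6a3 (chr1:90766860-90844001) had 2625, 2468, 2401 and 1604 CPM with IL-17 in the Arid5a RIP, against 2127, 1448, 1665 and 1872 in medium, at 0.36 ± 0.13 (SE; adjusted p = 0.114). Col6a1 (chr10:76708792-76726044) had 853, 826, 757 and 537 CPM with IL-17 in the Arid5a RIP, against 756, 501, 601 and 675 in medium, at 0.23 ± 0.15 (SE; adjusted p = 0.359). Col6a2 (chr10:76595756-76623630) had 740.5, 748, 650.0 and 527 CPM with IL-17 in the Arid5a RIP, against 648, 455, 501 and 579 in medium, at 0.29 ± 0.13 (SE; adjusted p = 0.200). The groups overlapped for each chain, with library 4 the lowest of the IL-17 libraries. Scaling by TMM factors from well-expressed genes turned the folds of Col6a1 and Col6a2 below 0.

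With IgG, Col6a3 had 2153, 1990.0 and 2516 CPM with IL-17, against 2263, 1994, 2247 and 2047 in medium, at 0.05 ± 0.15 (SE; adjusted p = 0.940). Col6a1 had 641, 622 and 825 CPM with IL-17, against 769, 959, 657 and 646 in medium, at -0.12 ± 0.16 (SE; adjusted p = 0.852). Col6a2 had 555, 609 and 667 CPM with IL-17, against 613, 560.4, 501 and 529 in medium, at 0.15 ± 0.15 (SE; adjusted p = 0.777). All 3 chains overlapped between the groups. Arid5a over IgG with IL-17 gave 0.04 ± 0.15 for Col6a3, 0.10 ± 0.16 for Col6a1 and 0.13 ± 0.15 for Col6a2, with adjusted p-values of 0.962, 0.894 and 0.834. In medium it gave -0.27 ± 0.14, -0.26 ± 0.15 and -0.01 ± 0.14, with 0.411, 0.492 and 0.982. The interactions were 0.30 ± 0.20, 0.35 ± 0.22 and 0.14 ± 0.20, with 0.454, 0.434 and 0.758. An adjusted p above 0.05 does not show that levels were alike.

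**Figure D4:**
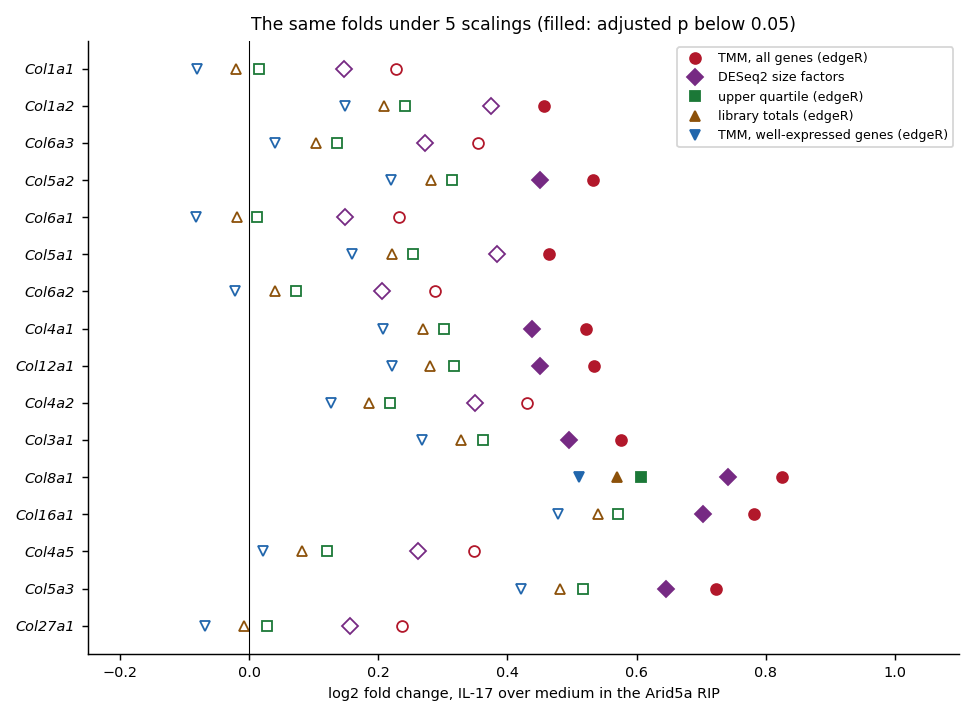
Fitted log2 folds of IL-17 over medium in the Arid5a RIP (horizontal axis) for the 16 well-expressed collagens under 5 scalings, one symbol each, filled where the adjusted p is below 0.05. Col8a1 is filled under each scaling, between 0.51 and 0.82, and Col1a1 lies on either side of 0.

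Other measures moved with the contrast of IL-17 and medium in the Arid5a RIP. The 1485 genes of olfactory and vomeronasal receptors, proteins of the sensory epithelia of the nose, summed to 1672, 1801, 1404 and 4048 CPM with IL-17, against 3224, 4079.9, 4759 and 3287 in medium. IL-17 library 4, the highest of its group on these genes, was the lowest of its group for each of the 16 collagens except Col27a1. Library totals in the Arid5a RIP were 3411753 to 5713913 with IL-17, against 2128688 to 3636336 in medium. The summed level of the 8 stromal markers was 10032 ± 1479 CPM with IL-17, against 8920 ± 936 CPM in medium (SD, n = 4 each). Most of that sum was Vim and Cxcl12, with medians over libraries of 7041 and 1794 CPM. The mean sum of each of the 7 marker lists of other cell types was lower with IL-17, a difference not tested. The highest median of a gene on those lists was 105 CPM, for Runx2. Folds differed by level over all genes too, with a median of 0.30 for well-expressed genes and -0.48 for those below. The 4 endothelial markers summed to 10.9, 6.38, 12.1 and 31.1 CPM with IL-17, against 29.0, 35.1, 26.5 and 33.4 in medium. The 5 epithelial markers summed to 8.60, 10.3, 12.8 and 28.6 CPM with IL-17, against 36.5, 33.0, 24.4 and 29.8 in medium. The 5 haematopoietic markers summed to 6.71, 4.33, 4.79 and 4.81 CPM with IL-17, against 8.14, 11.2, 8.43 and 11.7 in medium. The haematopoietic sums did not overlap, and on the endothelial and epithelial lists IL-17 library 4 was among the medium libraries. In IgG medium the receptor genes summed to 2156, 2004, 1979 and 3077 CPM, below each Arid5a medium library, where Col1a1 was lower. The part of these measures in the collagen folds was not tested.

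The 28 collagens that were not well expressed each had at most 164 counts in a library, and 12 of them had 0 in at least 1 library. Col10a1, the chain of hypertrophic cartilage and the highest of them, had 9.26 ± 1.88 FPKM (SD). That mean was above those of the well-expressed Col5a3 and Col27a1, since FPKM scales to gene length and the level cut was set on CPM. The Col10a1 model overlaps the gene Nt5dc1, so reads of the overlap cannot be assigned. Col18a1, a multiplexin whose end fragment is endostatin, had 2.91 FPKM, and the anchoring-fibril chain Col7a1 2.05. The remaining basement-membrane chains were Col4a3 at 0.507 FPKM, Col4a4 at 0.659 and Col4a6 at 0.255. The remaining beaded-filament chains were Col6a4 at 1.45 FPKM, Col6a5 at 1.09 and Col6a6 at 2.01.

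The fibrillar chains of cartilage were low. Col2a1, the main collagen of cartilage, had 0.915 FPKM, Col11a1 0.218 and Col11a2 1.03. Col24a1, also fibrillar, had 0.523 FPKM. Among the FACIT genes Col9a1, Col9a2 and Col9a3 had 0.528, 0.531 and 0.869 FPKM, Col14a1 0.721, Col19a1 0.714, Col20a1 0.960 and Col22a1 1.37. The membrane-bound chains were Col13a1 at 1.84 FPKM, Col17a1 at 0.992, Col23a1 at 1.46 and Col25a1 at 1.13. Col15a1, the second multiplexin, had 0.660 FPKM, Col26a1 1.51 and Col28a1 1.54. Col4a6, with a total of 84 counts, and Col9a2, with 72, did not pass the filter and were not tested.

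None of the 26 tested low collagens was called by edgeR with all 15 libraries and TMM factors. Their median fold for IL-17 in the Arid5a RIP was -0.46, against -0.48 over all genes below the level for well expressed. The medians were 0.31 against 0.25 for Arid5a over IgG in medium, -0.47 against -0.19 with IL-17, 0.24 against 0.04 for IL-17 in the IgG RIP, and -0.98 against -0.46 for the interaction. Col6a6 had 5.35 ± 2.20 CPM in Arid5a IL-17, against 11.7 ± 2.08 CPM in Arid5a medium (SD, n = 4 each), a fold of -1.15 ± 0.45 (SE; adjusted p = 0.125). DESeq2 called it lower, at -1.23 with an adjusted p of 0.0313, as it did 3.16% of all genes. In edgeR it was called with only the libraries compared (-1.17, adjusted p = 0.0325), without Arid5a IL-17 library 4 (-1.45, adjusted p = 0.0356) and without both IgG medium library 2 and IgG IL-17 library 4 (-1.13, adjusted p = 0.0416). Over all genes these settings called 1049, 759 and 827 lower, in that order, against 145 with all 15 libraries and TMM factors. Without Arid5a IL-17 library 4, Col6a5 was also called lower (-1.53, adjusted p = 0.0408). In limma voom 8 low collagens were lower in this comparison (Col6a6, Col6a5, Col6a4, Col9a1, Col4a3, Col15a1, Col23a1 and Col25a1), against 32.1% of all genes below the level for well expressed. Col13a1 had 2.27 ± 1.04 CPM in Arid5a IL-17, against 11.8 ± 11.5 CPM in IgG IL-17, and did not pass (-2.34 ± 0.74, adjusted p = 0.319).

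The summed level of the 28 low collagens was 135, 137, 151 and 218 CPM in Arid5a IL-17, 226, 182, 235 and 229 in Arid5a medium, 214, 221 and 233 in IgG IL-17 and 224, 95.5, 161 and 219 in IgG medium. Arid5a IL-17 libraries 1 to 3 were low and library 4 was among the medium libraries. The same libraries were low and high on the receptor genes, and the relation was not tested.

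**Figure D5:**
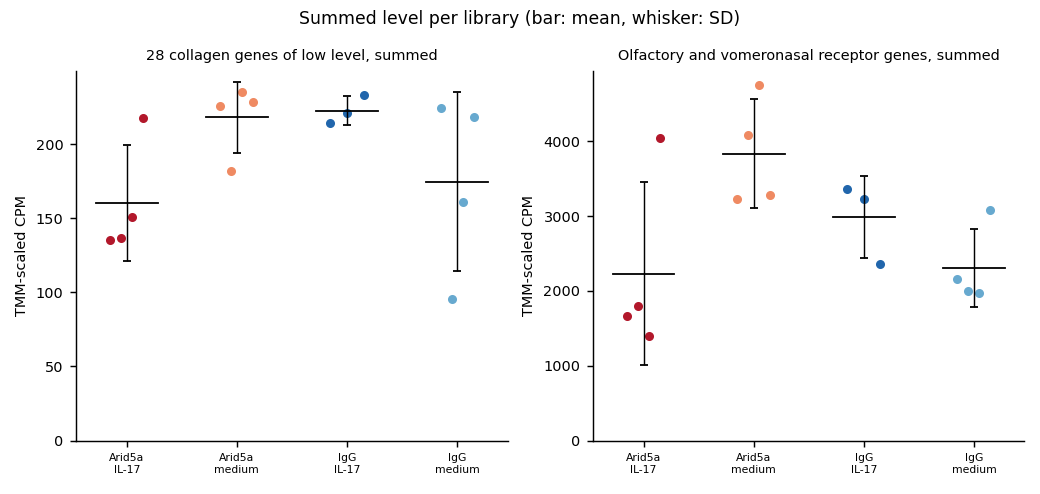
Summed TMM-scaled CPM (vertical axis, from 0) of the 28 low collagen genes (left) and of 1485 olfactory and vomeronasal receptor genes (right) in each library; points are libraries, bars group means and whiskers SD. Arid5a IL-17 libraries 1 to 3 lay between 135 and 151 CPM on the left, and library 4 at 218 CPM.

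Genes that process collagen were described beside the chains. Of 39 processing genes tested, 6 rose with IL-17 in the Arid5a RIP and 0 fell, where 4.84% of all genes and 15.4% of well-expressed genes rose. All 6 were among the 26 well-expressed processing genes. The median fold was 0.28 over the 39, against -0.12 over all genes tested, and 0.37 over the 26, against 0.30 over all well-expressed genes. Plod2, a lysyl hydroxylase of the telopeptides, had 75.3, 80.7, 65.1 and 68.2 CPM with IL-17 in the Arid5a RIP, against 25.1, 21.9, 35.5 and 34.2 in medium, without overlap, at 1.3 ± 0.21 (SE; adjusted p = 0.000204). Lox, the lysyl oxidase that crosslinks collagen, had 2594, 2874, 2415 and 1862 CPM with IL-17 in the Arid5a RIP, against 1417, 1671, 1436 and 1572 in medium, without overlap, at 0.68 ± 0.12 (SE; adjusted p = 0.000546). P4ha1, the catalytic subunit of prolyl 4-hydroxylase, had 276, 285, 235 and 197 CPM with IL-17 in the Arid5a RIP, against 152, 149, 142 and 178 in medium, without overlap, at 0.68 ± 0.15 (SE; adjusted p = 0.00633).

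Creb3l1, a transcription factor of the endoplasmic reticulum that drives Col1a1 in osteoblasts, averaged 200.2 ± 33.5 CPM with IL-17 and 103 ± 8.34 CPM in medium, at 0.96 ± 0.15 (SE; adjusted p = 0.000115). It was the 1 processing gene called in the IgG RIP, against 0.258% of all genes that rose there, where it averaged 214 ± 23.5 CPM with IL-17 and 105 ± 14.2 CPM in medium, at 1.02 ± 0.16 (SE; adjusted p = 0.000556). Its interaction was -0.06 ± 0.22 (SE; adjusted p = 0.909). Loxl4, a further lysyl oxidase, rose by 0.60 ± 0.16 (SE; adjusted p = 0.0204), and Sparc, a collagen-binding glycoprotein, by 0.40 ± 0.12 (SE; adjusted p = 0.0410) in the Arid5a RIP. Creb3l1, Lox and Plod2 were called under each scaling, while P4ha1, Loxl4 and Sparc were called under TMM factors from all genes and DESeq2 alone.

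In medium, Arid5a over IgG was lower for 1 of the 39 processing genes, P4ha1, where 0.572% of all genes and 1.85% of well-expressed genes were lower. It had 152, 149, 142 and 178 CPM in Arid5a medium libraries, against 190.3, 264, 281 and 273 CPM in IgG medium libraries, at -0.69 ± 0.16 (SE; adjusted p = 0.0307). DESeq2 kept this call and also called Plod2 lower, as it did 327 of all genes. Under the other 3 scalings none of the 39 was called in medium. With IL-17 none of the 39 was called in edgeR, where 2 had an unadjusted p below 0.05, against 8.95% of all genes, and DESeq2 also called 0. The interaction was called for P4ha1 alone, at 1.02 ± 0.23 (SE; adjusted p = 0.0223), in edgeR with TMM factors and in DESeq2, and not under the other 3 scalings. In edgeR 0.869% of all genes and 2.82% of well-expressed genes were called higher in the interaction. Plod2 had 1.05 ± 0.32 (SE; adjusted p = 0.0908).

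Some regulators of collagen were given whatever their result. Serpinh1, the collagen chaperone Hsp47, averaged 1162 ± 174 CPM in Arid5a IL-17 and 946 ± 75.3 CPM in Arid5a medium, at 0.30 ± 0.12 (SE; adjusted p = 0.142). P4hb, the disulphide isomerase subunit of prolyl 4-hydroxylase, gave 0.12 ± 0.12 (SE; adjusted p = 0.535). Larp6, which binds a stem-loop of collagen I transcripts, was low, at 5.24, 1.82, 2.87 and 13.0 CPM in Arid5a IL-17, against 10.1, 11.6, 5.72 and 8.03 CPM in Arid5a medium, at -0.64 ± 0.58 (SE; adjusted p = 0.525). None of these 3 was called in any comparison.

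Of 17 collagen receptors and degrading enzymes, 13 were tested and 1 rose with IL-17 in the Arid5a RIP, where 4.84% of all genes and 15.4% of well-expressed genes rose. It was Itgb1, the beta-1 chain shared by collagen-binding integrins, which averaged 794 ± 104 CPM with IL-17 and 505 ± 56.6 CPM in medium, at 0.65 ± 0.13 (SE; adjusted p = 0.00174). It was not called under library totals or TMM factors from well-expressed genes. None of the 13 was called by edgeR in the other 4 comparisons. At an unadjusted p below 0.05, 1 passed for Arid5a over IgG with IL-17, against 8.95% of all genes, and 4 in medium, against 12.8%. For IL-17 in the IgG RIP 3 passed, against 11.1%, and for the interaction 4, against 16.3%. DESeq2 called Itga2 lower in the interaction, as it did 163 of all genes. As level checks, Gapdh gave 0.09 ± 0.13 (SE; adjusted p = 0.685), Actb 0.43 ± 0.12 (SE; adjusted p = 0.0247) and Arid5a itself 0.35 ± 0.36 (SE; adjusted p = 0.568) for IL-17 in the Arid5a RIP.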

How the data were processed

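RIP-seq libraries of ST2 cells were analysed in 4 groups taken from the labels. Expected counts per gene were deposited by the authors and were read as unnormalised RSEM estimates, because 2.66% to 10.3% of the values of a library were not whole and totals differed. FPKM values were deposited by the authors for the same genes. STAR 2.7.9, RSEM 1.3.1, DESeq2 1.36.0, R 4.3.0 and the mm10 build are named in the submitters' processing notes, without their roles. Annotation and strand setting are not given in the sources used here, so reads of overlapping gene models (23 of the 44 collagens, 5 of the 16 well expressed) cannot be separated.

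After rounding, counts were tested with edgeR 4.0.16 (R 4.3.3). The 17835 genes that passed filterByExpr received TMM factors, and robust quasi-likelihood models estimated the 4 group means from all 15 libraries. Every p of a single gene is from this test unless another tool is named, and calls need a Benjamini-Hochberg adjusted p below 0.05 over all genes tested. The common biological coefficient of variation was 0.341. CPM values are scaled with the same factors. The procedure was also run on simulated data, in which all but a random set of genes were unchanged. Such data cannot show how scaling acts where most well-expressed genes move in one direction, as in the Arid5a RIP.

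Alternatives were upper-quartile factors, library totals, TMM factors from well-expressed genes, DESeq2 1.42.0, limma 3.58.1 voom with sample weights, no filter, a minimum of 10 counts throughout a group, fits restricted to the compared libraries, a block for the replicate number, limma with FPKM on the log2 scale (pseudocount 1 or 0.1), and libraries left out. Each collagen averaging 5 or more in log2 CPM was named with its values, as was each called collagen, and the others were named with their level. Of the processing and receptor lists, called genes were named, with Serpinh1, P4hb, Lox and Larp6 whatever their result. The members and lists were chosen with earlier results of these data known. Coordinates and upstream sequences are from RefSeq tables of GRCm38.p6, where all 44 symbols matched.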

Additional observations from a re-analysis of the deposited data

Results flagged for a closer look

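Of 69 groups of 4 libraries examined, 3 held a library far from the others, with a gap to its nearest neighbour above Dixon's critical value. Chance flags about 1 in 20 groups. Col4a2 had 483 CPM in Arid5a IL-17 library 4, against 618.5 to 629.7 CPM in the other libraries of that group (gap of 0.923 of the range). Col5a1 had 571.1 CPM in the same library, against 723.5 to 741.7 CPM in the others (0.893). Both are from the library with the highest receptor-gene level of its group. The ratio of Col6a1 to Col6a2 in FPKM was 1.717 in IgG medium library 2, the shallowest library, against 1.219 to 1.288 in the other IgG medium libraries (0.861).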

How the results depend on the processing

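For IL-17 in the Arid5a RIP, 9 collagens were called. The count was 1 under upper-quartile factors, library totals and TMM factors from well-expressed genes, 0 with limma on log2(FPKM + 1) and on log2(FPKM + 0.1), and 23 with limma voom (15 higher, 8 lower). Leaving out single libraries gave 1 to 14 calls. Calls over all genes moved too. In edgeR with TMM factors from all genes, 863 genes rose. With limma on FPKM 73 (pseudocount 1) and 63 (0.1) rose, and with limma voom 3372. The cause of these shifts was not tested. For Arid5a against IgG in medium, the 1 call became 0 under these 3 scalings, limma voom, both FPKM settings, no filter, the stricter filter, only the libraries compared, the replicate block, and the joint removal of IgG medium library 2 and IgG IL-17 library 4. It was 0 to 1 with single libraries left out. For Arid5a against IgG with IL-17, limma voom called 2 in place of 0. For the interaction it called 7 in place of 0, and leaving out single libraries gave 0 to 3. Over all genes, limma voom called 271 higher and 300 lower with IL-17, and 938 higher and 820 lower in the interaction. For IL-17 in the IgG RIP the count was 0 in every setting run.

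With the replicate number as a block, the Arid5a RIP contrast of IL-17 kept 9 calls. Over 21 pairs of same-numbered libraries, the correlation of their deviations ran from -0.130 to 0.197, and 1 pair exceeded 0.1. Pairs with different numbers ran from -0.183 to 0.156. These correlations cannot decide whether same-numbered libraries shared a culture, since noise of single libraries can hide it, and the labels do not say. Of single-gene results over all settings, 1873 kept direction and side of the threshold, 24 passed it newly, 103 lost it, none reversed while called, and 144 uncalled folds changed sign. Low counts limited the 28 low collagens, with at most 164 counts in a library.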
